A study of Homo sapiens with 60 samples.

Results

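The aryl hydrocarbon receptor (AHR) and 7 genes tied to it were followed in SW1783 cells, an established human astrocytoma line, after 24 h with the vehicle or with an aqueous extract of herbs. The members were the 8 rows of the deposited table whose Ensembl identifiers map to AHR, ARNT, CYP1A1, CYP1B1, AHRR, TIPARP, ALDH3A1 and NQO1, out of 60675 genes. All 8 were among the 17190 genes that passed the filter on low counts. Levels are in CPM, counts scaled to a common library size by the trimmed mean of M-values (TMM), and differences are log2 fold changes with a standard error (SE) from edgeR's quasi-likelihood test. A change was called where the Benjamini-Hochberg adjusted p over all genes tested was under 0.05.

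The labels give the vehicle as DMSO at 0.1%, with 3 libraries. They title each extract a water extract and state no DMSO level for it. Citri Unshius Pericarpium (dried mandarin peel), Cimicifugae Rhizoma, Bupleuri Radix, Aconiti Lateralis Radix Preparata (processed aconite root) and the formulas Yijung-tang and Banhasasim-tang were each applied at 20, 100 and 500 µg/mL, called the low, medium and high dose, with 3 libraries per dose. The formula Bojungikgi-tang has 1 library per dose. Sample codes place the vehicle in a set of its own. Citri shares a set with Cimicifugae, Bupleuri with Aconiti, and Yijung-tang with Banhasasim-tang. A difference from the vehicle and a difference between code sets therefore cannot be told apart, whereas the doses of 1 extract share a set. Whether the extract libraries also received DMSO is not stated, so solvent may differ as well between each extract and the vehicle. The same 3 vehicle libraries enter all comparisons with the vehicle. The labels do not say that replicate libraries came from separate cultures, so the p-values measure the spread between these libraries, which may be technical.

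AHR is a cytosolic receptor held in a complex with HSP90 until a small planar ligand, such as a dioxin, a plant flavonoid or a tryptophan metabolite, binds it. It then enters the nucleus, pairs with ARNT and binds xenobiotic response elements, whose core reads GCGTG, near genes of foreign-compound metabolism. CYP1A1 and CYP1B1 are the classic induced monooxygenases, ALDH3A1 an aldehyde dehydrogenase and NQO1 a quinone reductase of the same battery, and AHRR and TIPARP are induced targets that damp the receptor. In astrocytes and gliomas the receptor has been studied as a sensor of kynurenine and of dietary indoles.

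Promoter windows of 300 bases (250 before to 50 after the start of transcription) were taken from RefSeq on GRCh38.p14. They were present for 6 of the 8 members, in 9 entries, and CYP1B1 and ALDH3A1 had no entry. Both strands were searched for the core GCGTG, for its longer form TNGCGTG, which contains the core, and for TGACNNNGC, the core of the antioxidant response element that NRF2 binds. The 4 windows below are the first window of each induced target that had an entry. All 4 hold the core, whose letters are in capitals (CACGC where the match is on the other strand). The second AHRR window also holds the core and is not shown.
CYP1A1, chr15:74725479-74725778, minus strand: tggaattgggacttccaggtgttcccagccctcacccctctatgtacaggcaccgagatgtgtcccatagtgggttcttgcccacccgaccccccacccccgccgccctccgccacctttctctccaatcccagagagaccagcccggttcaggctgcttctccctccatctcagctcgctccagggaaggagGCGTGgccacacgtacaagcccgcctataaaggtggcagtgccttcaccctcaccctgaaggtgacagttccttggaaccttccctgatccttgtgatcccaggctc
AHRR, first of 2 starts, chr5:321464-321763, plus strand: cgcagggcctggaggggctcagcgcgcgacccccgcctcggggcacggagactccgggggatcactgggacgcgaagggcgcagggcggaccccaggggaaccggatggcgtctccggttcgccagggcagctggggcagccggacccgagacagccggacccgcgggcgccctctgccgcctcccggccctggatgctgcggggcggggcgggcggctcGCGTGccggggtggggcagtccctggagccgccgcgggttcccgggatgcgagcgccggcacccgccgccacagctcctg
TIPARP, first of 3 starts, chr3:156674340-156674639, plus strand: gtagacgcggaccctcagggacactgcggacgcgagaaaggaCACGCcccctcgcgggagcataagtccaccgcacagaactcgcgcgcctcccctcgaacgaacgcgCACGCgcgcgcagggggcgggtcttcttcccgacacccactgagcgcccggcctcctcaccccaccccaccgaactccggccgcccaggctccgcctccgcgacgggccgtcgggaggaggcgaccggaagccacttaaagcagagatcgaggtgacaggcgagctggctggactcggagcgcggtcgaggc
NQO1, chr16:69726511-69726810, minus strand: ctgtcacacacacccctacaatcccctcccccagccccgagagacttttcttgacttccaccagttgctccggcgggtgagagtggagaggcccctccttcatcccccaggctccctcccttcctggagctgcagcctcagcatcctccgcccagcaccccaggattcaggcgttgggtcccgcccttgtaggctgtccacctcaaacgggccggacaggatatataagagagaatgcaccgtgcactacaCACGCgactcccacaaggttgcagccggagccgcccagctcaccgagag

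Counted from the start of transcription, the core began at base -57 in CYP1A1, at -30 in the first AHRR window and at -208 and -142 in the first TIPARP window. In NQO1 it lay at 2 bases after the start on the other strand, and there and in the first AHRR window the longer form was matched as well. The second AHRR window held the core at -247 and -42 and the AHR window at 38 bases after the start, while the ARNT window and the other 2 TIPARP windows held none. Among these windows the antioxidant core was found only in that of ARNT, at -183. Bases further upstream were not searched, so a gene without a match here may still hold either element. Of 35116 RefSeq promoter windows, 36.5% held the core at least once, 12.7% held it 2 times or more, 5.51% held the longer form and 13.3% the antioxidant core, so a single core is common and these matches describe letters only.

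The 8 genes differ greatly in level. On CPM per kilobase of exon, the vehicle mean was highest for NQO1 (47.0), followed by CYP1B1 (27.1), AHR (13.4), TIPARP (8.55), ARNT (7.99) and AHRR (6.59). CYP1A1 (0.203) and ALDH3A1 (0.108) were far below them. CYP1A1 had 4 to 75 counts per library and ALDH3A1 3 to 75, and they exceeded the filter's 0.433 CPM in 50 and 31 of the 57 libraries. Between the CYP1 members, CYP1B1 was the abundant one.

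The identity of the line was checked by markers over all libraries. Of 9 astrocyte markers, 4 (VIM, CD44, SOX9 and SLC1A3) had a median over 1 CPM, while GFAP, S100B, AQP4 and ALDH1L1 were at a median of 0.103 CPM or less. Markers of other cell types were over a median of 1 CPM for 2 of 4 in epithelium (KRT18 at 176 and KRT8 at 17.2), 2 of 4 in neurons (SNAP25 at 33.6 and SYT1 at 28.1) and 2 of 3 in leukocytes (CD68, at 156, and PTPRC). None of 3 in endothelium and none of 3 in hepatocytes was, and EPCAM, CDH5, ALB and TTR had medians of 0. Total counts ranged from 18.9 to 36.4 M (mega) per library. The share of mitochondrial counts was 5.03% to 5.29% with the vehicle, 10.6% to 10.8% with the medium and 8.99% to 9.29% with the high dose of Aconiti, and 5.06% to 8.21% in the other groups with 3 libraries. The part of that share in the Aconiti results was not tested. The third low-dose Citri library and the third high-dose Cimicifugae library deviated most from their group means. Their root mean square of log2 deviations was 0.140 and 0.152, against at most 0.102 elsewhere. Some of the results that involve them are also given without them. In bulk RNA, fewer cells and less RNA per cell cannot be told apart.

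**Figure D1:**
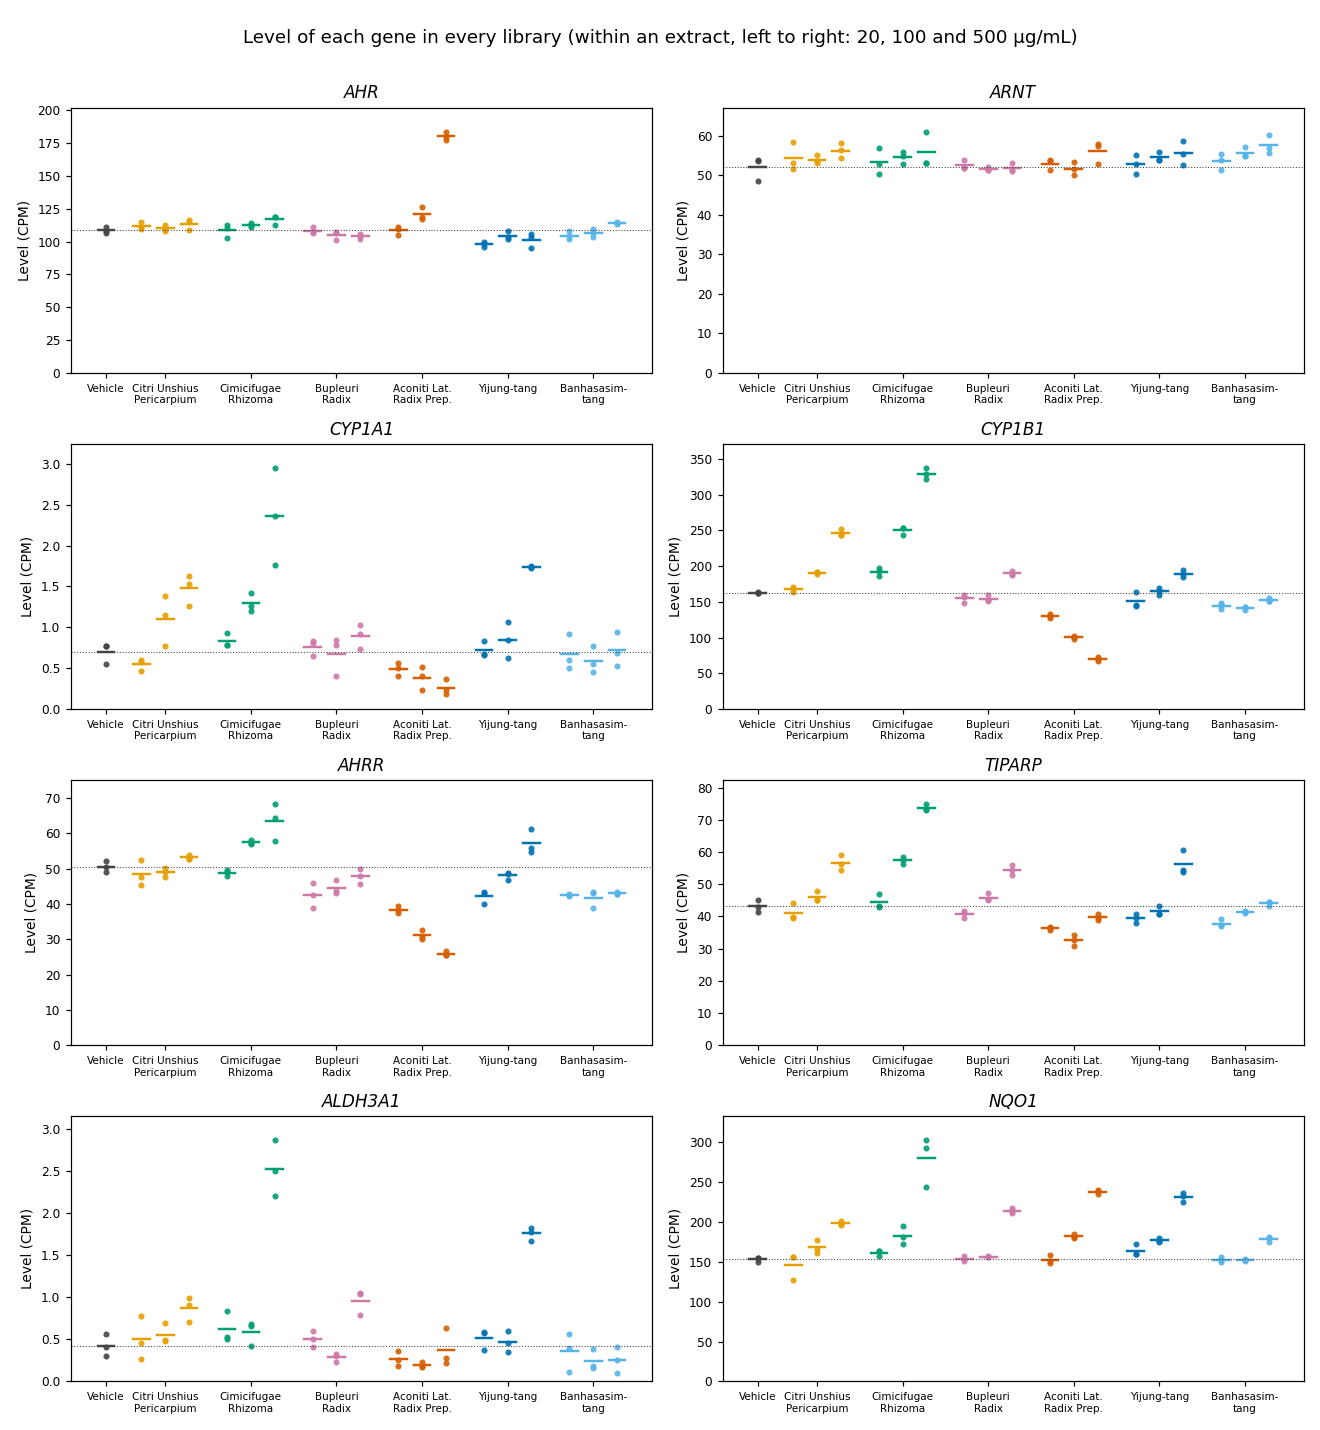
Level of each gene in CPM, on linear axes from 0, in every library (points) with the group mean (bar), for the vehicle (dotted line at its mean) and 6 extracts at 20, 100 and 500 µg/mL from left to right. CYP1B1 ran from a mean of 70.2 CPM at the high dose of Aconiti to 329 at the high dose of Cimicifugae, while ARNT stayed between 51.6 and 57.6.

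The receptor itself changed with 1 extract by a clear margin. AHR, at chr7:16916359-17346152 on the plus strand in GENCODE 29 (GRCh38), read 108, 106 and 111 CPM in the vehicle libraries. At the high dose of Aconiti it read 177, 180 and 184 CPM. None of these 3 libraries came near the vehicle, and the log2 fold change was 0.73 with an SE of 0.035 (edgeR adjusted p 9.05e-24). At the medium dose AHR read 119, 117 and 126 CPM (log2 fold change 0.15, SE 0.036), and at the low dose the libraries lay between 105 and 111 CPM, within reach of the vehicle. In every other group with 3 libraries the mean of AHR lay between 97.9 CPM, with low-dose Yijung-tang, and 117 CPM, with high-dose Cimicifugae.

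Smaller AHR differences were called but did not hold under every alternative. With Cimicifugae at the high dose AHR was 0.11 higher than the vehicle (log2; edgeR adjusted p 0.0157), and without the 2 libraries that stood apart the difference was 0.10 with an adjusted p of 0.0554. High-dose Yijung-tang had a log2 fold change of -0.10 against the vehicle (edgeR adjusted p 0.0383), a call lost when any 1 of the vehicle libraries or the third Yijung-tang library was left out, with adjusted p up to 0.34. The low dose of Yijung-tang gave 98.5, 95.7 and 99.5 CPM, all below the vehicle, and a log2 fold change of -0.15 (edgeR adjusted p 0.008). That call was lost without its second library (adjusted p 0.0622).

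ARNT, the dimer partner that AHR shares with the hypoxia factor HIF1A, was the least variable member. It lies at chr1:150809705-150876768 on the minus strand. The vehicle libraries read 53.9, 53.8 and 48.7 CPM, and the group means of all extracts lay between 51.6 CPM (medium Bupleuri) and 57.6 CPM (high Banhasasim-tang). Only the last differed from the vehicle by the test, with libraries at 60.2, 57.01 and 55.6 CPM and a log2 fold change of 0.14 (SE 0.050, edgeR adjusted p 0.0356). Without the third vehicle library or either of 2 Banhasasim-tang libraries it did not pass (adjusted p up to 0.244).

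CYP1B1, a monooxygenase that oxidises estrogens and polycyclic hydrocarbons, gave the clearest order of doses. Its locus, chr2:38066973-38109902 on the minus strand, overlaps RMDN2-AS1, RMDN2 and CYP1B1-AS1, and how the counting treated strand is not given, so reads of the overlapping genes may not have been told apart. The vehicle libraries read 164, 163 and 162 CPM. With Cimicifugae the low dose gave 193, 186 and 198 CPM, the medium dose 253, 254 and 244 CPM, and the high dose 328, 337 and 322 CPM. The 3 doses did not overlap each other or the vehicle, and the log2 fold changes against the vehicle were 0.24, 0.62 and 1.01 from low to high (SE 0.034 to 0.035), the last a 2.02-fold level with an edgeR adjusted p of 3.05e-28.

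CYP1B1 rose with Citri at the upper doses. The low dose gave 171, 168 and 164 CPM, the medium dose 191, 192 and 189 CPM and the high dose 253, 243 and 243 CPM. The low dose touched the vehicle's range, and the log2 fold change was 0.23 at the medium dose and 0.60 at the high dose (edgeR adjusted p 3.51e-05 and 1.33e-18). With Bupleuri and Yijung-tang the high dose was the one called higher. High-dose Bupleuri read 194, 189 and 187 CPM and high-dose Yijung-tang 185, 194 and 188 CPM, each 0.22 above the vehicle on the log2 scale (edgeR adjusted p 7.95e-06 and 2.37e-06).

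With Aconiti CYP1B1 went the other way. It read 127, 130 and 133 CPM at the low dose, 102, 101 and 98.0 CPM at the medium dose and 73.0, 67.8 and 69.7 CPM at the high dose. The doses did not overlap and all lay below the vehicle, with log2 fold changes of -0.33, -0.70 and -1.22 from low to high, and the edgeR adjusted p at the high dose was 7.18e-32. The high dose left 0.43 of the vehicle's level. Banhasasim-tang had lower CYP1B1 at the low (log2 fold change -0.17) and medium dose (-0.20), while the high dose, at 152, 155 and 151 CPM, missed the threshold (-0.09, edgeR adjusted p 0.0573). The low dose of Yijung-tang was called lower than the vehicle (-0.11) with overlapping libraries, and that call was lost without any 1 of the 3 vehicle libraries, with adjusted p up to 0.275.

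CYP1A1, the most sensitive classic target in liver and skin, was scarce here and its fold changes are correspondingly uncertain. Its gene lies at chr15:74719542-74725610 on the minus strand. The vehicle libraries held 11, 18 and 15 counts (0.554, 0.775 and 0.767 CPM). High-dose Cimicifugae held 46, 54 and 75 counts (1.76, 2.37 and 2.95 CPM), high-dose Yijung-tang 33, 47 and 37 counts (1.72, 1.74 and 1.74 CPM) and high-dose Citri 37, 33 and 34 counts (1.53, 1.63 and 1.26 CPM). All 9 libraries lay above the vehicle, with log2 fold changes of 1.74 (SE 0.256), 1.3 (SE 0.264) and 1.06 (SE 0.267), and edgeR adjusted p of 1.55e-07, 8.14e-05 and 0.00203.

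The third high-dose Cimicifugae library was the highest in CYP1A1, and without the 2 libraries that stood apart the log2 fold change was 1.54 and still called. High-dose Aconiti held 4, 4 and 8 CYP1A1 counts (0.230, 0.179 and 0.371 CPM), all below the vehicle, with a log2 fold change of -1.41 (SE 0.389, edgeR adjusted p 0.000869). High-dose Bupleuri (26, 17 and 20 counts) and high-dose Banhasasim-tang (28, 15 and 16 counts) overlapped the vehicle, and the 95% intervals of their differences, -0.21 to 0.91 and -0.52 to 0.60, leave room for a rise as well as a fall. At the medium doses, Cimicifugae (0.88) and Aconiti (-0.88) were called against the vehicle, but both calls were lost when single libraries were left out, with adjusted p up to 0.163 and 0.269.

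AHRR, a repressor that competes with AHR for ARNT, followed CYP1B1 most closely of the members over the 19 groups with 3 libraries (Pearson's r 0.956). Without the Aconiti groups TIPARP was closer to CYP1B1 (r 0.916, against 0.897 for AHRR). The span of AHRR, chr5:304176-438291 on the plus strand, overlaps PDCD6 on the same strand, which makes its estimated counts less certain. The vehicle libraries read 50.5, 49.1 and 52.1 CPM. With Cimicifugae it read 58.2, 57.4 and 56.96 CPM at the medium dose and 64.4, 57.8 and 68.3 CPM at the high dose, a log2 fold change of 0.33 at the latter (SE 0.051, edgeR adjusted p 1.26e-06), and 0.28 without the 2 libraries that stood apart. The medium-dose call (0.19) was lost without either of 2 vehicle libraries or the first of its own (adjusted p up to 0.0902). High-dose Yijung-tang read 54.7, 55.7 and 61.1 CPM and was called higher (0.18, edgeR adjusted p 0.00679), which was lost without the third Yijung-tang library (adjusted p 0.088). High-dose Citri, at 54.0, 52.7 and 52.8 CPM, missed the threshold (0.07, adjusted p 0.347).

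AHRR fell with Aconiti at every dose. The low dose read 39.4, 37.3 and 38.3 CPM, the medium dose 32.5, 30.8 and 30.2 CPM, and the high dose 25.6, 25.4 and 26.6 CPM. These groups did not overlap, and the log2 fold changes were -0.40, -0.70 and -0.97 from low to high, with an edgeR adjusted p of 2.48e-20 at the high dose. Banhasasim-tang also had lower AHRR at all 3 doses (log2 fold changes -0.25, -0.28 and -0.23), with no order by dose: its libraries spanned 38.8 to 43.4 CPM in all. Low-dose Yijung-tang (-0.26) and low-dose Bupleuri (-0.25) were called lower as well, the latter not without any 1 of the vehicle libraries (adjusted p up to 0.434).

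TIPARP, an ADP-ribosyltransferase that modifies AHR and promotes its loss, rose with 4 of the 6 extracts. Its gene lies at chr3:156673235-156706770 on the plus strand and overlaps TIPARP-AS1. The vehicle libraries read 45.1, 41.4 and 43.0 CPM. High-dose Cimicifugae read 74.9, 73.5 and 73.0 CPM, high-dose Citri 54.5, 56.3 and 59.1 CPM, high-dose Bupleuri 56.1, 54.5 and 52.8 CPM, and high-dose Yijung-tang 54.4, 60.7 and 53.8 CPM. All 12 libraries lay above the vehicle, with log2 fold changes of 0.77, 0.39, 0.34 and 0.39 (SE 0.044 to 0.045), and the edgeR adjusted p was 2.8e-07 or less.

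For TIPARP the Aconiti doses had no steady order. The low dose read 36.6, 35.9 and 36.4 CPM, the medium dose 31.0, 32.6 and 34.2 CPM, and the high dose 40.7, 38.9 and 39.4 CPM. All 3 doses were called lower than the vehicle (log2 fold changes -0.25, -0.40 and -0.12), the high dose only in part of the alternatives, with an adjusted p of 0.0223 that reached 0.134 without single libraries. Unlike CYP1B1 and AHRR, TIPARP was thus lowest at the medium dose. High-dose Banhasasim-tang, at 44.5, 44.5 and 43.3 CPM, overlapped the vehicle, and its 95% interval was -0.06 to 0.12. Its low dose was called lower (-0.19), but not without the first vehicle library (adjusted p 0.0803).

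ALDH3A1, which oxidises aromatic and medium-chain aldehydes, lies at chr17:19737984-19748943 on the minus strand. The vehicle libraries held 6, 13 and 8 counts (0.302, 0.560 and 0.409 CPM). High-dose Cimicifugae held 75, 57 and 56 counts (2.87, 2.498 and 2.20 CPM) and high-dose Yijung-tang 32, 48 and 39 counts (1.67, 1.78 and 1.83 CPM). Both groups stood clear of the vehicle and of every other group, with log2 fold changes of 2.54 (SE 0.342, edgeR adjusted p 6.91e-09) and 2.02 (SE 0.351, edgeR adjusted p 3.21e-06).

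ALDH3A1 was called at no medium or low dose. Medium-dose Cimicifugae held 16, 10 and 18 counts and medium-dose Yijung-tang 19, 10 and 12 counts, and neither was called. High-dose Citri (22, 20 and 19 counts) and high-dose Bupleuri (20, 24 and 23 counts) were called with log2 fold changes of 0.99 and 1.15 (edgeR adjusted p 0.0413 and 0.0372). Both calls were lost with the DESeq2 Wald test and without any 1 of several libraries, 2 vehicle libraries among them, with adjusted p up to 0.172 and 0.187. Aconiti and Banhasasim-tang held 3 to 17 counts per library over their doses, and no difference from the vehicle was detectable at this depth.

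NQO1, a quinone reductase driven by AHR and by NRF2, was higher at the high dose of all 6 extracts. Its gene lies at chr16:69706996-69726951 on the minus strand. The vehicle libraries read 155, 154 and 150.3 CPM. At the high dose Cimicifugae read 293, 303 and 244 CPM, Aconiti 236, 239.9 and 239 CPM, Yijung-tang 237, 232 and 226 CPM, Bupleuri 212, 218 and 214 CPM, Citri 201, 198 and 197 CPM, and Banhasasim-tang 181, 175 and 180.1 CPM. None of these 18 libraries overlapped the vehicle, and the log2 fold changes in that order were 0.87, 0.64, 0.60, 0.49, 0.38 and 0.22 (SE 0.051 to 0.052). The edgeR adjusted p ran from 1.09e-18 for Cimicifugae to 0.00156 for Banhasasim-tang.

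The libraries that stood apart were low in NQO1 within their groups. The third high-dose Cimicifugae library read 244 CPM beside 293 and 303, and the third low-dose Citri library 127 CPM beside 156 and 156. Their mitochondrial shares were 7.69% and 7.37%, against 5.32% to 5.88% in the other libraries of those 2 groups. Without both, NQO1 with high-dose Cimicifugae was 0.96 above the vehicle. At the medium dose NQO1 was called higher with Cimicifugae (0.26), Aconiti (0.25) and Yijung-tang (0.21), and at no low dose. NQO1 was also called with medium-dose Citri (0.138, edgeR adjusted p 0.00947) and low-dose Yijung-tang (0.101, 0.0404) once both libraries were left out.

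**Figure D2:**
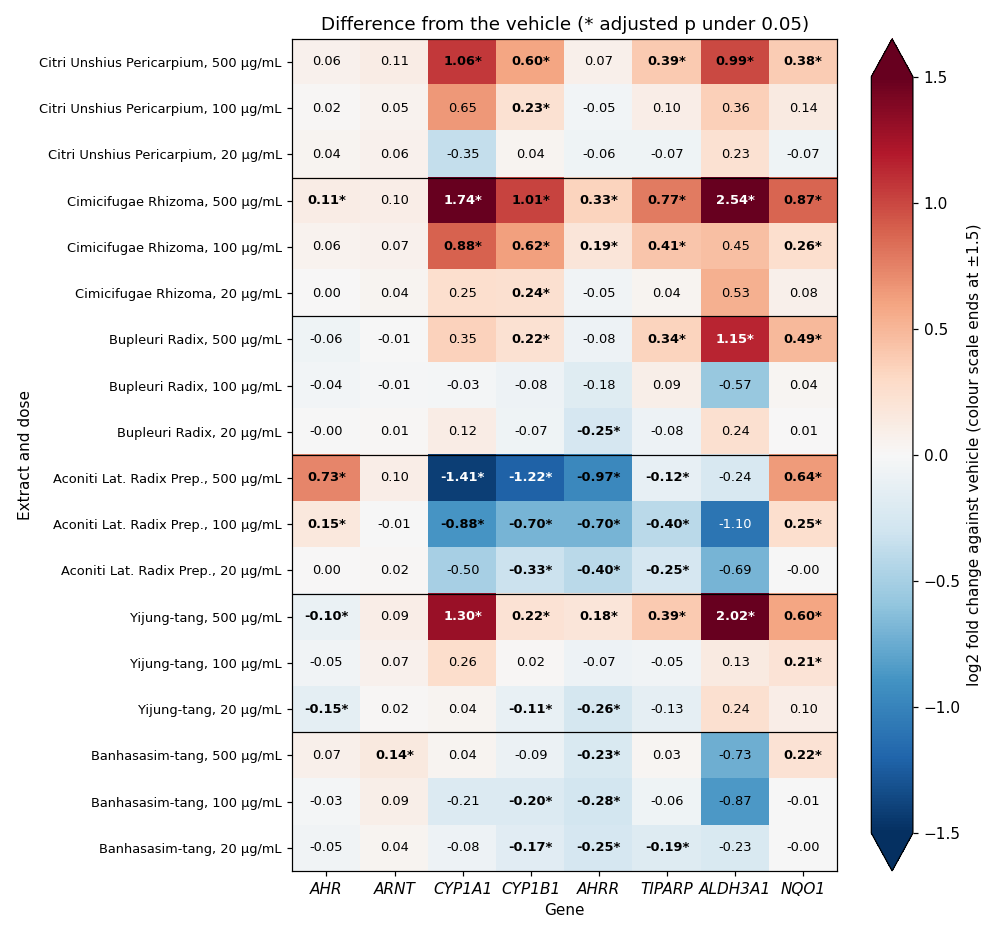
Log2 fold change against the vehicle (colour and number) for each gene (columns) in each extract and dose (rows), with a star where the edgeR adjusted p was under 0.05. The Aconiti rows join lower CYP1B1 and AHRR (down to -1.22 and -0.97) with higher NQO1 (0.64) and AHR (0.73) at 500 µg/mL, while Cimicifugae at that dose has 7 of 8 genes higher.

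Counted by extract at the high dose, the members read as follows beside the share of all genes tested that were called in the same comparison. Cimicifugae had 7 of 8 members higher and none lower, where 32.5% of all genes were called, 15.1% higher and 17.5% lower. The median member was 0.82 higher on the log2 scale. Yijung-tang had 6 members higher and AHR lower, with a median of 0.30, where 32.0% of all genes were called (15.3% higher, 16.7% lower). Citri had 5 higher and none lower, with a median of 0.38 (21.6%, of which 9.82% higher and 11.8% lower). Bupleuri had 4 higher and none lower, with a median of 0.28 (7.02%, of which 3.01% higher and 4.01% lower). Without the first vehicle library 789 genes were called there, in place of 1206. Aconiti had AHR and NQO1 higher and CYP1A1, CYP1B1, AHRR and TIPARP lower, with a median of -0.18. Most genes of any kind were called with Aconiti (60.4%, of which 31.5% higher and 28.9% lower), and the members' count is near that share. Banhasasim-tang had ARNT and NQO1 higher and AHRR lower, with a median of 0.04 (16.8%, of which 7.99% higher and 8.82% lower). The median over all genes lay between 0.00 and 0.01 in all 6 comparisons.

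At the medium dose 6 members were called with Aconiti (31.1% of all genes) and 5 with Cimicifugae (6.63%), against 1 with Citri (2.07%), 1 with Yijung-tang (6.28%), 2 with Banhasasim-tang (8.32%) and none with Bupleuri (0.413%). At the low dose 3 members were called with Aconiti (2.19%), 3 with Yijung-tang (6.38%), 3 with Banhasasim-tang (5.75%), 1 with Bupleuri (0.0756%), 1 with Cimicifugae (1.27%) and none with Citri (1.88%). CYP1B1 with Cimicifugae was the call above the vehicle at the low dose, and all other calls at that dose were below it. In all, 58 of the 144 tests against the vehicle passed. Per comparison, 0.0756% (low-dose Bupleuri) to 60.4% (high-dose Aconiti) of all genes were called. AHRR was lower at the low dose with Bupleuri, Aconiti, Yijung-tang and Banhasasim-tang, all against the same 3 vehicle libraries, and code set and extract cannot be told apart in that difference.

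Doses of 1 extract were then compared with each other, which keeps the code set fixed. The high dose of Cimicifugae had 7 members above its low dose (25.1% of all genes called, 11.7% higher and 13.5% lower), led by ALDH3A1 (2.01), CYP1A1 (1.49), NQO1 (0.79), CYP1B1 (0.78) and TIPARP (0.73). AHR was the weakest of them (0.10, edgeR adjusted p 0.0237) and was not called without the 2 libraries that stood apart (adjusted p 0.102). Yijung-tang had 6 higher (21.7%, of which 10.2% higher and 11.5% lower): ALDH3A1 by 1.78, CYP1A1 by 1.26, TIPARP by 0.52, NQO1 by 0.50, AHRR by 0.44 and CYP1B1 by 0.33. Citri had 4 higher (18.2%, of which 8.19% higher and 10.0% lower). These were CYP1A1 (1.41), CYP1B1 (0.56), TIPARP (0.46) and NQO1 (0.44, and 0.35 without the 2 libraries that stood apart). AHRR was 0.14 above the low dose without passing (adjusted p 0.0612) and passed at 0.19 without the third low-dose Citri library and its counterpart in Cimicifugae.

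Bupleuri had 4 members above its low dose (4.37% of all genes called, 1.92% higher and 2.45% lower): NQO1 by 0.48, TIPARP by 0.42, CYP1B1 by 0.29 and AHRR by 0.17. The AHRR libraries of the 2 doses overlapped, and its call (edgeR adjusted p 0.0475) was lost with DESeq2 size factors and without single libraries of either dose. Banhasasim-tang had 3 higher (6.67%, of which 3.08% higher and 3.58% lower), NQO1 and TIPARP by 0.22 each and AHR by 0.13. The AHR call was lost without the filter on low counts (adjusted p 0.0804) and when high-dose replicate 1, low-dose replicate 2 or low-dose replicate 3 was left out (up to 0.0999). CYP1B1 differed there by 0.08 with a 95% interval of 0.01 to 0.14 and an adjusted p of 0.227, and AHRR by 0.01 with an interval of -0.09 to 0.12.

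Aconiti had AHR (0.73), NQO1 (0.64) and TIPARP (0.13) above its low dose and CYP1B1 (-0.89) and AHRR (-0.57) below it, where 57.8% of all genes were called, 30.4% higher and 27.4% lower. CYP1A1 was lower (-0.90), with a 95% interval of -1.71 to -0.10 and an adjusted p of 0.0595. The mitochondrial share of the low dose was 6.45% to 7.56%, against 8.99% to 9.29% at the high dose. The TIPARP rise was lost without single libraries (adjusted p up to 0.103). Of the 48 tests of high against low dose, 29 passed, where 4.37% (Bupleuri) to 57.8% (Aconiti) of all genes were called.

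**Figure D3:**
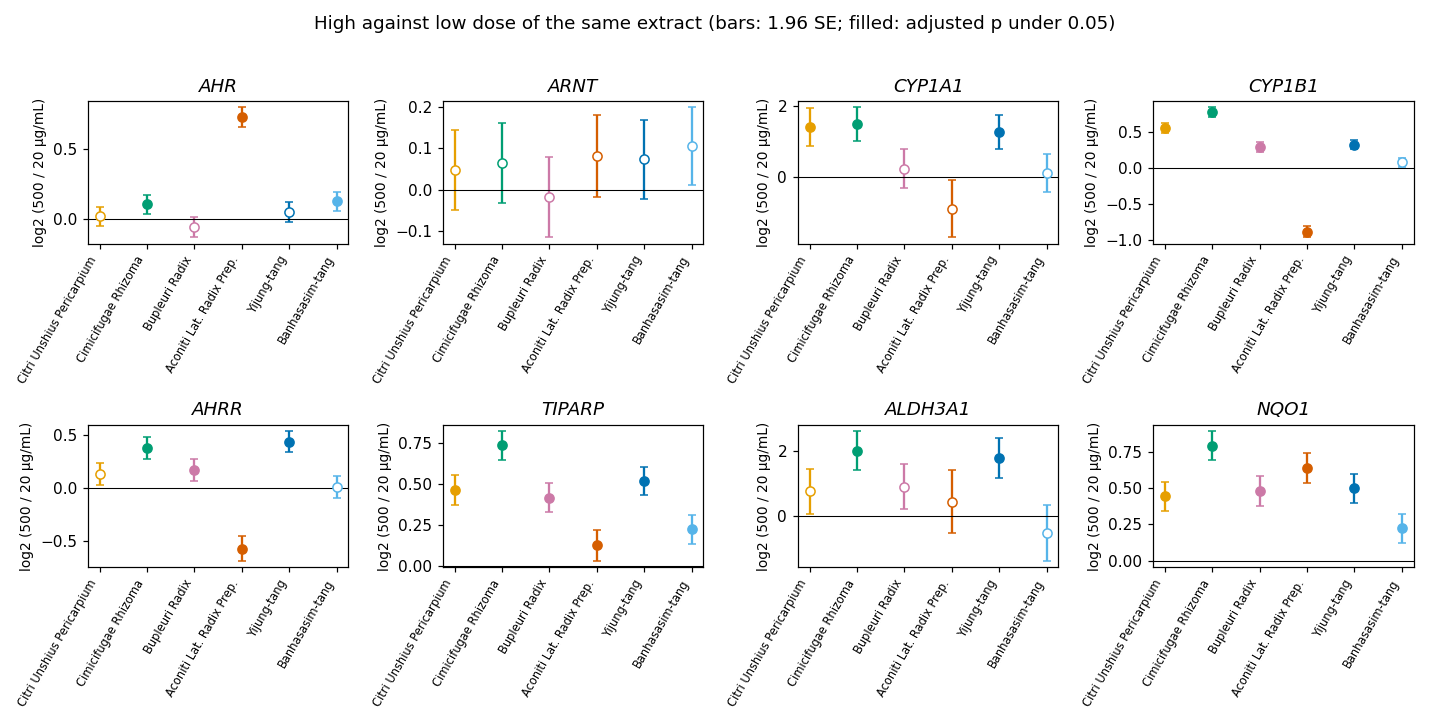
Log2 ratio of the high to the low dose of each extract (points, with 95% intervals as bars), filled where the edgeR adjusted p was under 0.05, 1 panel per gene with its own vertical scale. NQO1 and TIPARP are above 0 with all 6 extracts, CYP1B1 and AHRR are below 0 with Aconiti alone, and AHR stands out with Aconiti at 0.73.

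Between the medium and the low dose 9 of 48 tests passed, where 0.0407% (Bupleuri) to 20.4% (Aconiti) of all genes were called. With Aconiti 5 members were called (20.4% of all genes): NQO1 (0.25) and AHR (0.15) higher, CYP1B1 (-0.37), AHRR (-0.30) and TIPARP (-0.15) lower. With Cimicifugae CYP1B1 (0.38), TIPARP (0.37) and AHRR (0.24) were higher, where 0.105% of all genes were called. The AHRR call there was lost without any 1 of the 6 libraries (adjusted p up to 0.272), and that of TIPARP with Aconiti without 3 of the 6 (up to 0.118). With Citri CYP1B1 was higher (0.19, where 0.227% of all genes were called), a call lost without the third low-dose library (adjusted p 0.0756 without the 2 libraries that stood apart). No member was called with Bupleuri (0.0407%), Yijung-tang (0.116%) or Banhasasim-tang (0.506%).

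Extracts of the same code set were compared at matched doses. Cimicifugae exceeded Citri at the high dose for 6 members (12.3% of all genes called): ALDH3A1 by 1.55, CYP1A1 by 0.68, NQO1 by 0.49, CYP1B1 by 0.42, TIPARP by 0.38 and AHRR by 0.26. AHRR did not pass with the compared groups only (edgeR adjusted p 0.0975). The CYP1A1 difference was 0.48 without the 2 libraries that stood apart and was not called (adjusted p 0.242). That of NQO1 was 0.585 without them. AHR differed by 0.05 (95% interval -0.02 to 0.12) and ARNT by -0.01 (-0.11 to 0.09). At the medium dose 3 members were higher with Cimicifugae (0.669%), CYP1B1 by 0.39, TIPARP by 0.32 and AHRR by 0.23, the last not without single libraries (adjusted p up to 0.111). At the low dose it was CYP1B1 alone, by 0.20 (0.163%), a call lost without the libraries that stood apart (adjusted p 0.114).

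Aconiti against Bupleuri at the high dose had AHR (0.80) and NQO1 (0.15) higher and CYP1A1 (-1.76), CYP1B1 (-1.44), ALDH3A1 (-1.39), AHRR (-0.89) and TIPARP (-0.46) lower, with 58.3% of all genes called. At the medium dose 5 members differed (28.6%), and at the low dose CYP1B1 was lower with Aconiti (-0.26, where 0.535% of all genes were called). Banhasasim-tang against Yijung-tang at the high dose had AHR higher (0.17) and ALDH3A1 (-2.75), CYP1A1 (-1.26), AHRR (-0.41), NQO1 (-0.38), TIPARP (-0.36) and CYP1B1 (-0.31) lower, with 23.8% of all genes called. At the medium dose CYP1B1 (-0.22), AHRR (-0.20) and NQO1 (-0.22) were lower (2.47%), AHRR not without single libraries (adjusted p up to 0.203), and no member differed at the low dose (0.0873%). In total 33 of 72 such tests passed, where 0.0873% to 58.3% of all genes were called per comparison.

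The differences between 2 extracts in their change from the low to the high dose were tested as an interaction. Cimicifugae and Citri differed in 4 members (11.1% of all genes called), with the larger rise under Cimicifugae for CYP1B1, AHRR, TIPARP and NQO1. None of these 4 passed when only the compared groups were fitted (adjusted p 0.0841, 0.218, 0.126 and 0.171). Aconiti and Bupleuri differed in 4 (44.0%), with the larger rise of AHR under Aconiti and falls of CYP1B1, AHRR and TIPARP relative to Bupleuri. The NQO1 response did not pass there (0.16 larger with Aconiti, 95% interval 0.02 to 0.30, edgeR adjusted p 0.0727). Banhasasim-tang and Yijung-tang differed in 6 (10.1%), every target having the smaller response under Banhasasim-tang.

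**Figure D4:**
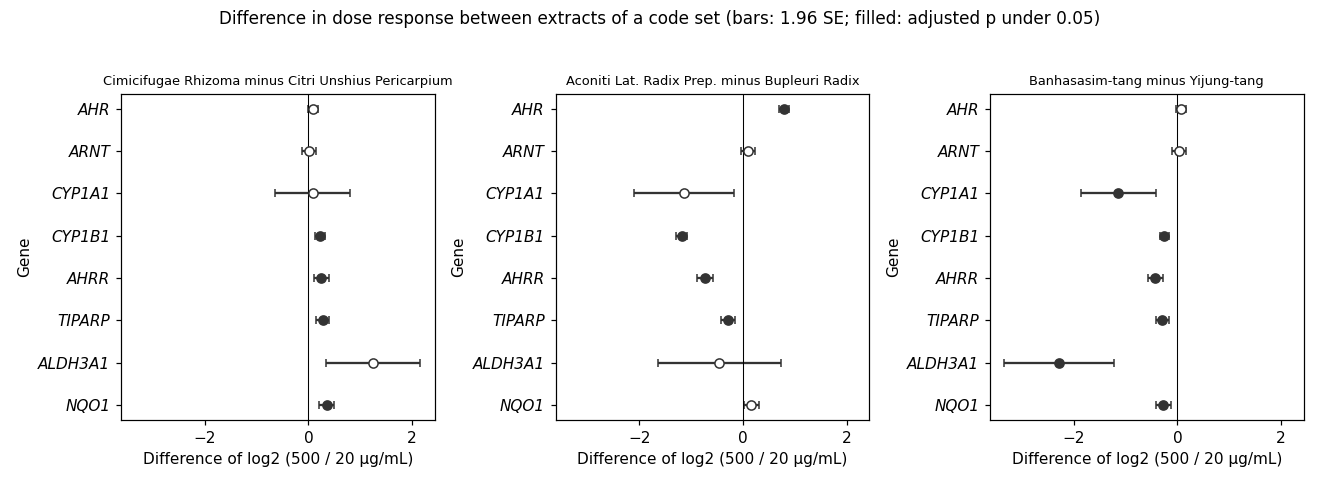
Difference between 2 extracts of a code set in the log2 ratio of high to low dose (points, with 95% intervals as bars), for each gene, filled where the edgeR adjusted p was under 0.05. CYP1B1 has filled points in all 3 panels, at 0.22, -1.18 and -0.25.

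Group means were set side by side across the 19 groups with 3 libraries, as a description only, since the groups share the vehicle, code sets and doses. Pearson's r of mean log2 CPM was 0.956 for CYP1B1 and AHRR, 0.928 for CYP1B1 and CYP1A1 and 0.824 for CYP1B1 and TIPARP. Over the 16 groups without Aconiti these were 0.897, 0.881 and 0.916, so the order depended on Aconiti. For ALDH3A1 and AHRR r was 0.698 over the 19 groups. CYP1B1 and NQO1 had r 0.227 over the 19 groups and 0.770 over the 16 groups without Aconiti, and AHRR and NQO1 had 0.142 and 0.745. AHR and CYP1B1 had r -0.524 and 0.577 over the same groups. Cimicifugae at the high dose was the highest group for CYP1A1, CYP1B1, AHRR, TIPARP, ALDH3A1 and NQO1, and Aconiti at the high dose was the lowest for CYP1A1, CYP1B1 and AHRR and the highest for AHR.

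The neighbours at the top of the CYP1B1 order were medium-dose Cimicifugae (250.3 ± 5.51 CPM, SD, n = 3) and high-dose Citri (246 ± 5.48 CPM, SD, n = 3), whose libraries overlapped. High-dose Bupleuri (190.0 ± 3.34 CPM), high-dose Yijung-tang (189 ± 4.75 CPM), medium-dose Citri (191 ± 1.62 CPM) and low-dose Cimicifugae (192 ± 5.85 CPM) were likewise within their spread of each other. The 3 Aconiti doses (129.9 ± 3.03, 100.3 ± 1.98 and 70.2 ± 2.59 CPM) were each apart from the next group.

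**Figure D5:**
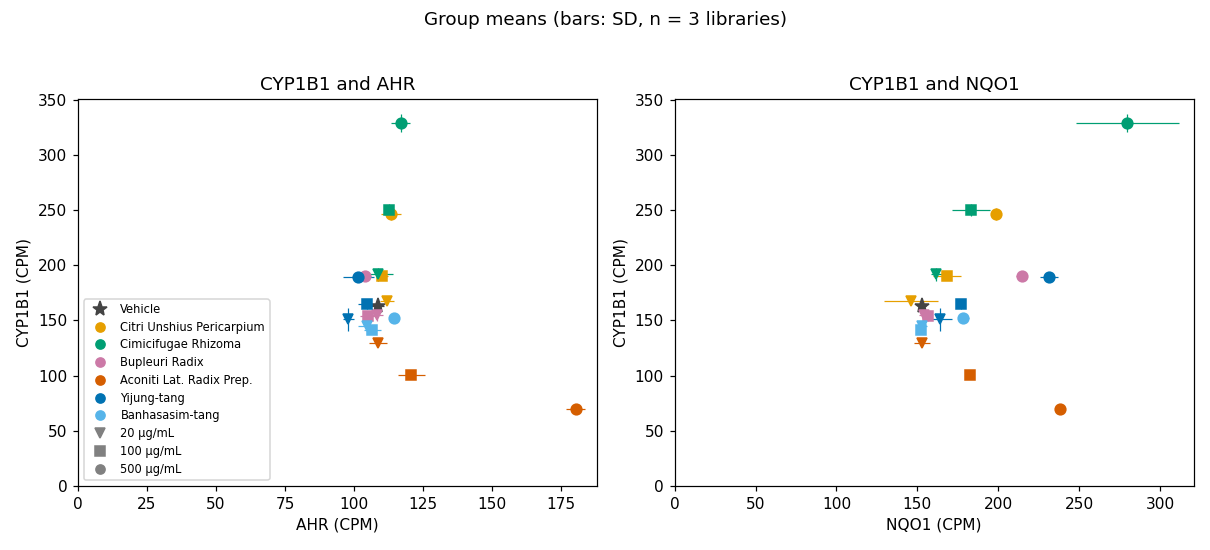
Group mean of CYP1B1 against that of AHR (left) and NQO1 (right) in CPM on linear axes from 0, with bars of 1 SD (n = 3), coloured by extract and shaped by dose. The Aconiti groups leave the other groups toward low CYP1B1. At 20 µg/mL CYP1B1 is already at 129.9 CPM, with AHR (108.6) and NQO1 (152.9) near the vehicle (108.5 and 153.1). AHR and NQO1 are higher at the upper doses, and 500 µg/mL ends at 70.2 CPM of CYP1B1 with 180.2 of AHR and 238 of NQO1.

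Among 11115 genes with a symbol and a mean of at least 5 CPM, those whose group means most resembled CYP1B1 over the 19 groups were AHRR (r 0.956), MXD4 (0.951), PARP4 (0.944), PTGFRN (0.943) and TMEM129 (0.935). MXD4, for instance, had a mean of 31.3 CPM with the vehicle, 41.7 with high-dose Cimicifugae and 16.8 with high-dose Aconiti. By Spearman's rho in place of r, 3 of these 5 remained among the 5 most alike. Those most like NQO1 were SLC48A1 (r 0.939), CRYL1 (0.927), PIR (0.909), ENPP2 (0.906) and CELSR3 (0.898). SLC48A1, a heme transporter, had means of 23.7, 39.5 and 36.3 CPM in the same 3 groups. Only 1 of these 5 remained by Spearman's rho, and 3 with single libraries in place of group means.

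Lists of related genes, chosen with earlier results of these data known, were counted at the high dose against the vehicle. Their counts stand beside 60.4% of all genes called with Aconiti, 32.5% with Cimicifugae, 32.0% with Yijung-tang, 21.6% with Citri, 16.8% with Banhasasim-tang and 7.02% with Bupleuri. Of 9 other AHR targets tested (CYP1A2, listed at 0 in the vehicle libraries, was too low), 6 were higher and 1 lower with Aconiti, with a list median of 0.58. Between 2 and 4 were called with each other extract. SLC7A5, an amino acid transporter, was 1.69 higher with Aconiti and 0.20 with Banhasasim-tang. STC2, a secreted glycoprotein, was 0.77 higher with Aconiti. SERPINB2, a plasminogen activator inhibitor, was 1.98 higher with Banhasasim-tang, 0.58 with Aconiti and 0.48 with Bupleuri, and lower with Citri (-0.26). CYP2S1, a further cytochrome P450 singled out after its values were seen, was 1.105 higher with Yijung-tang, 0.71 with Cimicifugae and 0.36 with Citri, and lower with Aconiti (-0.75).

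Of 15 NRF2 targets other than NQO1, 14 were higher and 1 lower with Aconiti (median 0.65), 14 and none with Cimicifugae (0.37), 12 and 1 with Yijung-tang (0.29), 10 and none with Bupleuri (0.19), 7 and none with Citri (0.15), and 6 and 1 with Banhasasim-tang (0.09). The ferritin light chain FTL was higher with all 6, from 0.33 with Banhasasim-tang to 1.54 with Aconiti, and the heavy chain FTH1 from 0.28 (Citri) to 2.07 (Aconiti). Both have many pseudogene copies, so their estimated counts are less certain. AKR1B10, named after its values were seen, was the 1 lower gene with Aconiti (-0.75) and with Banhasasim-tang (-0.44), and was 0.80 higher with Cimicifugae.

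Of the 12 genes of the AHR complex and its partners, 3 were higher and 4 lower with Aconiti and likewise with Yijung-tang, 1 higher and 2 lower with each of Citri, Cimicifugae and Banhasasim-tang, and 2 higher and none lower with Bupleuri. The list medians lay between -0.08 and -0.01. NCOA3, a coactivator, and BMAL1, a dimer partner of the clock, both named after their values were seen, were higher with Aconiti by 0.76 each. The chaperone HSP90AA1 was lower with Aconiti (-0.30) and higher with Banhasasim-tang (0.25), Yijung-tang (0.23) and Bupleuri (0.13). HSP90AB1 was lower with Cimicifugae (-0.24), Aconiti (-0.20) and Citri (-0.09) and higher with Yijung-tang (0.14) and Bupleuri (0.09). HIF1A, which shares ARNT with AHR, was higher with Aconiti (0.34), Citri (0.23), Yijung-tang (0.20) and Cimicifugae (0.17). Of 10 HIF targets, 4 were higher and 5 lower with Aconiti (60.4% of all genes called), and 6 were higher and 1 lower with Citri (21.6%), where 4 were called in all without the second vehicle or the third Citri library. VEGFA and NDRG1 were higher with all 6 extracts (0.23 to 0.98 and 0.19 to 2.45), and the glucose transporter SLC2A1 was higher with Aconiti (0.19) and Bupleuri (0.11) and lower with Yijung-tang (-0.25) and Citri (-0.14).

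Of 7 tested enzymes that form or use kynurenine or indole ligands, 3 were higher with Cimicifugae and 2 each with Citri and Banhasasim-tang. Aconiti and Yijung-tang had 1 each higher and Bupleuri none, and none was lower. KYNU, kynureninase, was higher with Citri (0.73), Banhasasim-tang (0.62) and Cimicifugae (0.52). KYAT1, a kynurenine aminotransferase, was higher with Cimicifugae (0.53), Yijung-tang (0.44) and Citri (0.39). IL4I1, an amino acid oxidase, was higher with Aconiti (1.62) and Banhasasim-tang (1.15) at means of 4.17 and 2.99 CPM beside 1.34 with the vehicle. AFMID, arylformamidase, was called with no extract at the high dose.

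Bojungikgi-tang, with 1 library per dose and therefore no test, is given beside the range of the vehicle. At the high dose NQO1 read 188 CPM (exact Poisson 95% interval 183.5 to 193) and AHR 125 CPM (121.5 to 129), both above the vehicle's libraries. AHRR read 41.35 CPM at the high, 42.1 at the medium and 45.1 at the low dose, all below the vehicle's 49.1 to 52.1. CYP1B1 read 159.7, 148 and 152 CPM in that order, below the vehicle's 162 to 164, TIPARP 44.2, 40.7 and 39.6 CPM, and ARNT 55.04, 54.2 and 54.1 CPM. CYP1A1 had 21, 24 and 18 counts and ALDH3A1 13, 4 and 15. The intervals cover counting error only, not the spread between libraries.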

How the data were processed

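RNA-seq of total RNA (directional MGI library kit, paired ends, per the labels' protocols) gave 60 libraries. Per the submitters' processing notes, reads met STAR 2.7.3a and RSEM 1.3.3 with GRCh38, beside Trim Galore 0.6.5 and FastQC 0.11.9. The sources used here do not name the annotation, the strand setting or any filter. The authors deposited expected counts per gene, and 9.22% of the values were not whole. Because RSEM shares out ambiguous reads by estimate, overlapping genes are uncertain. Among the members, values were not whole in 60 libraries for NQO1, 56 for AHR, 50 for CYP1B1 and 24 for AHRR. For the other members they were whole in every library. Like AHRR and CYP1B1, AHR overlaps annotated genes on its own strand.

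Expected counts were rounded and fitted over the 57 libraries of 19 groups with edgeR 4.0.16 (R 4.3.3): genes kept by filterByExpr at a minimum count of 10, TMM scaling, quasi-likelihood test by group without a replicate block, adjustment over 17190 genes. Of the identifiers, 41209 had a symbol, and coordinates came from GENCODE 29. On simulated counts for high-dose Cimicifugae against the vehicle over 17190 genes, 96.5% of 200 genes changed 2-fold were recovered and 6.76% of calls were false. The simulation gave all genes the same spread between libraries and changed only genes above a minimum level. Whether these rates hold with a spread that differs by gene or for changes under 2-fold was not tested. Nor was it tested for genes at few counts, such as CYP1A1 and ALDH3A1, or with a library that stood apart. Replicates differed beyond sampling noise (chi-square per degree of freedom 1.74 to 21.9 over genes with at least 20 counts). The alternatives included DESeq2 1.42.0. By rule, the genes named are the members and the 5 most like CYP1B1 and NQO1. From each list the rule takes at most 4, the 2 most often called and the 2 highest. Named outside the rule are CYP1A2, too low to test, and CYP2S1, AKR1B10, NCOA3 and BMAL1, picked after their values were seen. Members and lists were chosen with earlier results of these data known. The design text states 2% DMSO, which differs from the level in the labels, and other agents it names are not analysed here.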

Additional observations from a re-analysis of the deposited data

Results flagged for a closer look

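The change from the low to the high dose differed between 2 extracts of the same code set in 14 of 24 tests. The test was edgeR's quasi-likelihood test on an interaction contrast, with 3 libraries in each of the 4 groups. Of all genes tested, 11.1% were called for Cimicifugae and Citri, 44.0% for Aconiti and Bupleuri and 10.1% for Banhasasim-tang and Yijung-tang. For Aconiti and Bupleuri the members' count, 4 of 8, is near that share. Between Cimicifugae and Citri the response was larger with Cimicifugae for NQO1 (difference of log2 ratios 0.35, edgeR adjusted p 0.0012), TIPARP (0.27, 0.00321), AHRR (0.24, 0.0227) and CYP1B1 (0.22, 0.00182). Fitted on the compared groups only, none of the 4 passed (adjusted p 0.171, 0.126, 0.218 and 0.0841 in that order), with nearly equal differences. Without the 2 libraries that stood apart the AHRR difference was 0.13 with an adjusted p of 0.434, and that of NQO1 was 0.53.

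Between Aconiti and Bupleuri the response was larger with Aconiti for AHR (0.79, edgeR adjusted p 1.76e-18) and lower for CYP1B1 (-1.18, 5.12e-25), AHRR (-0.74, 4.27e-11) and TIPARP (-0.29, 0.000259). CYP1B1 rose with dose in Bupleuri and fell with dose in Aconiti. TIPARP was above the low dose in both, by 0.42 and 0.13. The Aconiti call was lost with the compared groups only (edgeR adjusted p 0.0567), without the filter on low counts (0.0819) and without single libraries.

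Between Banhasasim-tang and Yijung-tang the response was smaller with Banhasasim-tang for ALDH3A1 (-2.28, edgeR adjusted p 0.00263), CYP1A1 (-1.14, 0.038), AHRR (-0.42, 4.62e-05), TIPARP (-0.29, 0.0011), NQO1 (-0.28, 0.00892; 3 libraries per group) and CYP1B1 (-0.25, 0.000307). CYP1A1 rests on 15 to 47 counts per library, and its call was lost without any 1 of 8 of the 12 libraries, with adjusted p up to 0.174. The ALDH3A1 call was lost without the third low-dose Banhasasim-tang library (adjusted p 0.0633).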

How the results depend on the processing

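No member changed direction among its called results in any alternative. Against the vehicle 58 of 144 tests passed, and 50 to 61 under the alternatives (49 to 59 with 1 library left out). High against low dose gave 29 of 48 (25 to 29, and 28 to 30), medium against low dose 9 of 48 (8 to 10, and 8 to 11), extracts of a set at a matched dose 33 of 72 (30 to 33, and 32 to 34), and the difference in dose response 14 of 24 (10 to 15, and 13 to 15). In the main fit the share of all genes called ran from 0.0407% to 60.4% over the contrasts behind these counts. Of all 143 calls, 111 held in every alternative and every fit with 1 library left out. Most calls that did not hold were of AHR and ARNT with differences under 0.15, of CYP1A1 and ALDH3A1 at few counts, or of AHRR. DESeq2 gave no adjusted p for ALDH3A1 in 29 contrasts, CYP1A1 in 20, AHRR in 1 and TIPARP in 1. The alternative without the 2 libraries that stood apart was chosen after seeing the data.

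In the 39 comparisons of 2 groups same-numbered replicates did not deviate together (correlations between -0.06 and 0.08 over 117 pairs), so there they share only a number. Among the groups of the dose-response comparison, high-dose Cimicifugae and low-dose Citri were the exception, with 0.16, 0.19 and 0.43 for replicates 1 to 3, the third pair being the libraries that stood apart. The replicate block changed no call of that comparison. With the replicate block the counts were 58, 29, 10, 33 and 14, the added call being NQO1 between the medium and low dose of Citri (log2 fold change 0.20, edgeR adjusted p 0.0495). The number of all genes called moved by over 1.5 times in 17 of 42 contrasts without the 2 libraries, in 17 with the compared groups only, in 13 without the filter, in 7 with DESeq2, in 4 with the block and in none with DESeq2 size factors. For example, 2110 genes differed between Cimicifugae and Citri at the high dose, and 1352 without those libraries.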
